A study of Mus musculus with 12 samples.

Results

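The 10 genes described here are Dera and 9 genes of the pentose phosphate pathway and its side entries: the oxidative-branch genes Pgls, Pgd and H6pd, the non-oxidative genes Rpia, Rpe, Tkt and Taldo1, and the sugar kinase genes Rbks and Shpk. They were found by gene name among the 46882 names of the deposited count table, and all 10 were present. Dera was chosen because its level was lower in kidneys without A1cf, so its difference between genotypes is given as a description with no test; the other 9 were chosen by pathway. RNA was sequenced from whole kidneys of C57BL/6 mice 6 to 8 weeks old, 6 wild type (WT) and 6 A1cf -/- (A1cf KO), in a study of what loss of A1cf does to kidney gene expression. The labels give the A1cf -/- genotype without naming the allele, and no treatment. A1cf encodes an RNA-binding protein, best known as a cofactor of APOBEC1, the enzyme that edits the mRNA of apolipoprotein B.

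The pentose phosphate pathway runs beside glycolysis in the cytosol. Its oxidative branch turns glucose 6-phosphate into ribulose 5-phosphate and makes NADPH, which serves lipid synthesis and the reduction of glutathione, and its non-oxidative branch exchanges carbon units between sugar phosphates, so that ribose 5-phosphate for nucleotides can be made from or returned to glycolytic intermediates. Side entries feed it: ribokinase phosphorylates free ribose, sedoheptulokinase phosphorylates sedoheptulose, and deoxyribose-phosphate aldolase splits the deoxyribose 5-phosphate left over from DNA nucleosides into acetaldehyde and glyceraldehyde 3-phosphate. H6pd stands apart, since it carries out the first oxidative steps inside the endoplasmic reticulum and supplies NADPH to the corticosteroid reductase Hsd11b1.

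Libraries held between 26671705 and 52899139 counts, and each is named here by its animal number. Levels are in CPM, counts divided by the library size after scaling by the trimmed mean of M-values (TMM), and a negative fold change is a lower level in A1cf KO. A1cf itself stood between 45.2 and 65.7 CPM in the WT libraries and between 2.95 and 6.11 in the A1cf KO libraries (log2 fold change -3.72, edgeR adjusted p = 6.0e-09), so each library matched its genotype label. The animal numbers fall into 2 runs, 573 to 602 (3 WT, 5 A1cf KO) and 776 to 780 (3 WT, 1 A1cf KO), and the labels do not say what the numbers stand for. The series calls the libraries biological replicates. Markers of kidney tubules were high in every library: 12 proximal tubule markers summed to between 15800 and 23500 CPM in WT and between 17458 and 23569 CPM in A1cf KO. All 10 genes of the pathway passed the filter on low counts, and together they took between 0.0960% and 0.123% of a library's counts.

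The stretches from 250 bases before to 50 bases after the RefSeq start (GRCm38.p6) are printed for Shpk, Taldo1 and Rpe. Taldo1 and Shpk had the highest Pearson correlations with Dera over the WT libraries, given below. No relation with Dera had an adjusted permutation p under 0.05. Rpe was the only one of the 9 with a higher level in A1cf KO at an unadjusted edgeR p under 0.05. The RefSeq promoter table held 9 of the 10 genes, without Dera. Capitals mark matches, on either strand, to the CCAAT box (CCAAT) and the GC box (GGGCGG), none of which overlapped here. Shpk lies at chr11:73199232-73199531 on the plus strand, Taldo1 at chr7:141391910-141392209 on the plus strand, and Rpe at chr1:66700581-66700880 on the plus strand.
Shpk: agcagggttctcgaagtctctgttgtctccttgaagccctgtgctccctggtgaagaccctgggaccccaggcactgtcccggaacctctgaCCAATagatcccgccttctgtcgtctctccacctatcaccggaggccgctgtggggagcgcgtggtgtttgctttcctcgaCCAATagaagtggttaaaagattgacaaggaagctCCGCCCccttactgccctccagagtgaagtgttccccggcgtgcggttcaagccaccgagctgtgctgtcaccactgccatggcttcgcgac
Taldo1: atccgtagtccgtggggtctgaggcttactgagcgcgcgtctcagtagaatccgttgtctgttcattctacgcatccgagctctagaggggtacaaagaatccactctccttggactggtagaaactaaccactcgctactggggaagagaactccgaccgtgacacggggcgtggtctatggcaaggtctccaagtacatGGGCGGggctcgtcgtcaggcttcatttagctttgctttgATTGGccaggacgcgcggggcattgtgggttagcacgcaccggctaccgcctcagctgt
Rpe: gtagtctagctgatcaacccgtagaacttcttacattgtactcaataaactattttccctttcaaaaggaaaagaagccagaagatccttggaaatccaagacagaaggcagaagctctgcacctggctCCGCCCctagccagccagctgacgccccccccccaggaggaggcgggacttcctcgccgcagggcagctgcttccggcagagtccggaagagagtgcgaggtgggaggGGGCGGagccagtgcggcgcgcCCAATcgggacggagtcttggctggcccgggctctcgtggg

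Shpk had 2 CCAAT boxes, 158 and 77 bases before the start, and 1 GC box. Taldo1 had 1 of each. Rpe had 2 GC boxes, and its CCAAT box lay after the start. Among the 9 genes, 8 had a GC box, against 35.9% of all 32544 mouse promoters of this length, and 5 had a CCAAT box, against 37.4%. H6pd was the gene without a GC box. Its window, 150003187 to 150003486 of chromosome 4 on the minus strand, lies inside the counted gene, 149979475 to 150009023. So it is not the window of the outermost counted start, and the lack of a GC box holds for this window only. The Tkt window (30548881 to 30549180) likewise lies inside its counted gene (30548359 to 30574722). The core of the antioxidant response element (TGACNNNGC) was in the promoter of Rbks and in 12.4% of all promoters. The TATA box (TATAAA, 13.6% of all promoters), the E-box CACGTG (7.17%) and the core GTTAAT of the HNF1 motif (7.14%) had no match in the 9 windows. For Pgd the table holds 2 starts, of which the first listed was counted; the other has a TGACNNNGC match and no GC box. A match is a description of the letters and not a binding site.

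Dera, which encodes deoxyribose-phosphate aldolase, was below the lowest WT library in all 6 A1cf KO libraries. The gene occupies 137754546 to 137857340 of chromosome 6 (mm10, plus strand), and its 14 counted exon segments span 8127 bases, which no exon of another gene name overlaps. In WT it was at 45.0 CPM in animal 573, 59.5 in 590, 51.7 in 601, 42.0 in 776, 44.7 in 777 and 49.3 in 778. In A1cf KO it was at 32.9 CPM in animal 574, 35.2 in 584, 37.2 in 588, 35.9 in 591, 39.7 in 602 and 34.8 in 780. The groups did not overlap, and the WT values were the more spread. Mean levels were 48.7 ± 6.35 and 35.9 ± 2.32 CPM (WT, then A1cf KO; SD, n = 6 each), so that A1cf KO stood at 73.8% of WT, a log2 fold change of -0.44 (SE 0.080). Of 16910 genes tested, 142 (0.84%) did not overlap between genotypes, 88 of them (0.52%) with the lower level in A1cf KO; since Dera was chosen for this contrast, nothing is read from that share.

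WT 590 had the highest Dera level of all, and without it the log2 fold change was -0.37, the smallest in size among the leave-one-out values. Within animals 573 to 602 Dera was at 45.0 to 59.5 CPM in 3 WT and 32.9 to 39.7 CPM in 5 A1cf KO (log2 fold change -0.53). Within animals 776 to 780 it was at 42.0 to 49.3 CPM in 3 WT, and the only A1cf KO animal stood at 34.8 CPM. Since every A1cf KO library lay below every WT library, the groups could not overlap within a run, and nothing is read from that. In WT the library with the most counts (590, 52156902) had the highest Dera level and the library with the fewest (776, 26671705) the lowest. In A1cf KO the library with the most counts (574, 52899139) had the lowest level and the library with the fewest (780, 30653736) the next lowest. The part of depth in these levels was not tested.

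**Figure D1:**
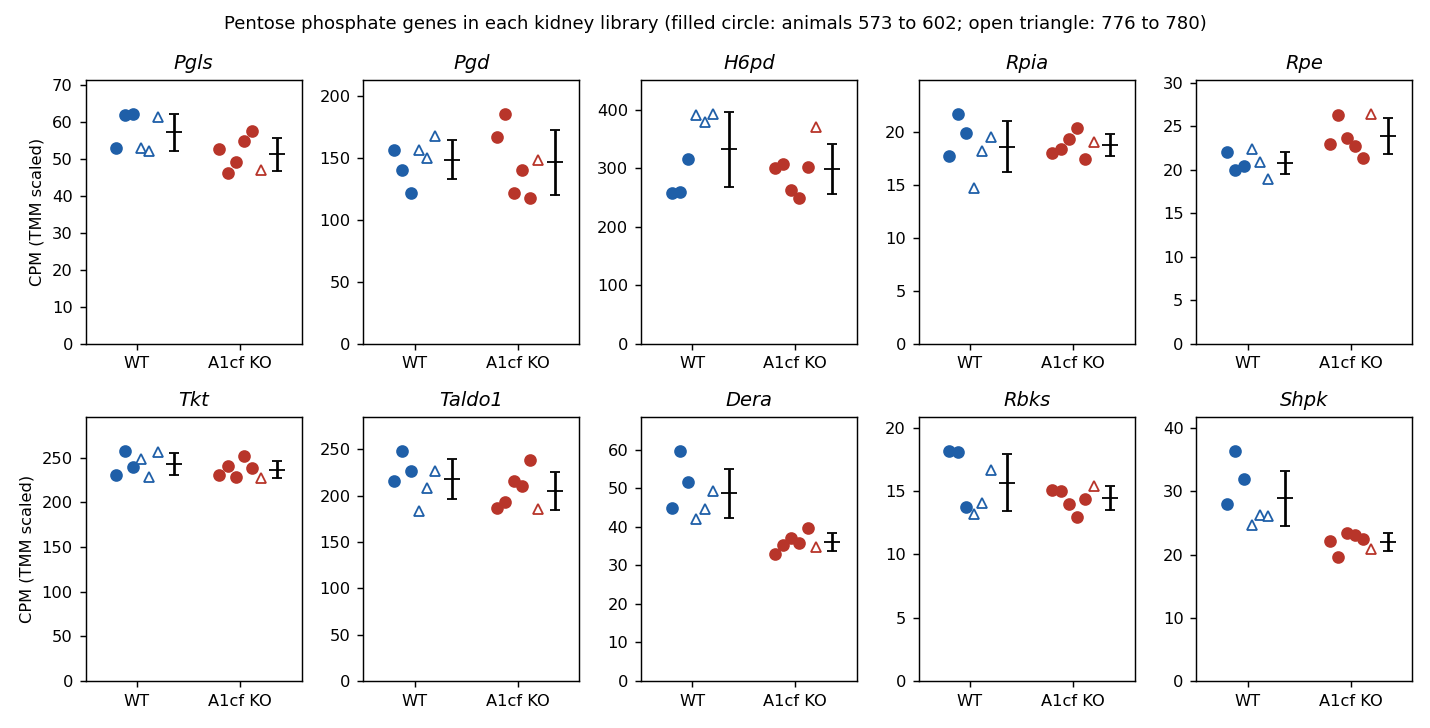
Levels in CPM (y axes, from 0) of the 10 genes, 1 point a library, with 6 WT in blue and 6 A1cf KO in red; filled circles are animals 573 to 602, open triangles animals 776 to 780, and black bars are the mean with SD. Dera and Shpk do not overlap between genotypes, and H6pd separates the 2 runs of animal numbers, as 18.1% of all genes do within WT.

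Shpk, which encodes sedoheptulokinase, followed the same order. Its gene (chromosome 11, 73199460 to 73224511) has 2985 exon bases, free of overlap with other genes. In WT it ran from 24.7 CPM in animal 776 over a median of 27.1 to 36.3 CPM in animal 590. In A1cf KO it ran from 19.6 CPM in animal 584 over a median of 22.3 to 23.4 CPM in animal 588. The highest A1cf KO library thus stood below the lowest WT library, as it did for 0.52% of all genes tested. The means were 28.9 ± 4.42 and 21.9 ± 1.43 CPM (SD, n = 6 each), 76.0% of the WT level.

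The fold change of Shpk did not pass the threshold in the edgeR test. It came to -0.40 on the log2 scale (SE 0.090), with an adjusted p of 0.16 over all genes by edgeR, and 6 of 6 A1cf KO libraries showed its direction. With a covariate for the run of animal numbers it was called (-0.47, edgeR adjusted p = 0.024; 0.142% of genes called in that fit), and so it was by the DESeq2 Wald test (-0.40, adjusted p = 0.012; 1.14% called). Within animals 573 to 602 alone it was -0.54 (edgeR adjusted p = 0.17), and over its 22 alternatives the adjusted p ran from 0.012 to 0.30. Without WT 590, where Shpk as well as Dera was highest, the log2 fold change was -0.32.

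Of the 9 genes other than Dera, 0 passed the edgeR threshold, in a comparison that called 8 of 16910 genes (0.0473%). At an unadjusted p under 0.05 there were 3, Shpk, Rpe and Pgls, against 10.4% of all genes tested. DESeq2 called 1 of the 9, Shpk. The median log2 fold change of the 9 was -0.09, and -0.00302 over all genes tested, with 7 of 9 negative against 50.8% of all genes.

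**Figure D2:**
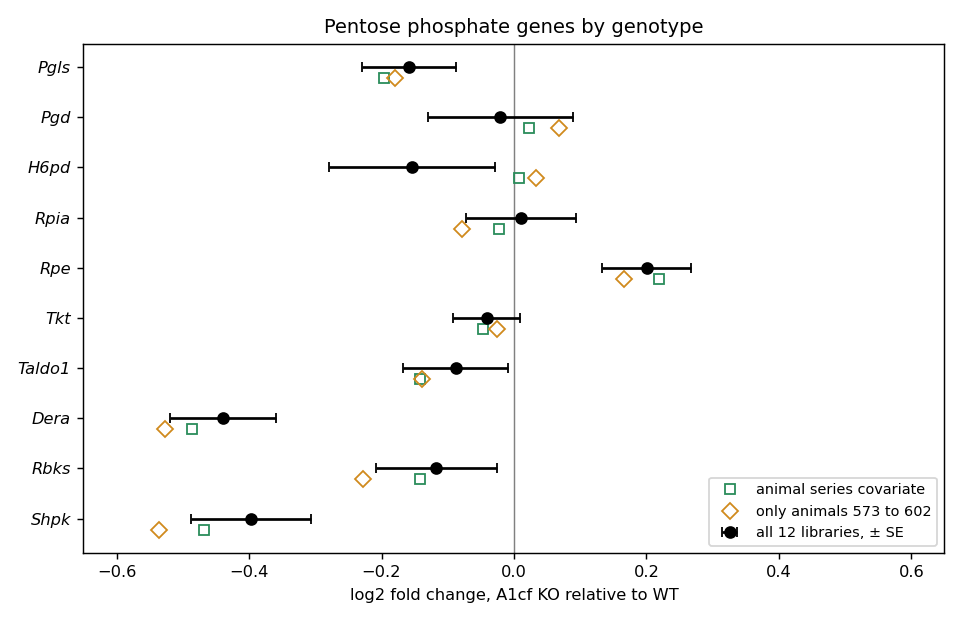
Genotype difference of each gene as log2 fold change (x axis, negative where lower in A1cf KO): black points with bars are the fit on all 12 libraries with its SE, green squares the fit with a covariate for the run of animal numbers, orange diamonds animals 573 to 602 only. Dera (-0.44) and Shpk (-0.40) lie lowest, Rpe (0.20) is highest, and Pgd, Rpia and H6pd change sign between the fits.

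In the oxidative branch no gene passed. Pgls, 6-phosphogluconolactonase, catalyses the second step. It ran from 52.2 to 62.1 CPM in WT (median 57.1) and from 46.2 to 57.5 CPM in A1cf KO (median 50.9). The groups overlapped, and the log2 fold change was -0.16 (SE 0.071, edgeR adjusted p = 0.46). Its exons share 776 of 3770 bases with Fam129c on the same strand, so its count is uncertain there. Pgd, 6-phosphogluconate dehydrogenase, makes the second NADPH of the branch. Its level spread widely in both groups, from 121 to 167 CPM in WT (median 153) and from 117 to 185 CPM in A1cf KO (median 144), with A1cf KO 584 highest and A1cf KO 602 lowest of all 12. Its log2 fold change was -0.02 (SE 0.11, edgeR adjusted p = 0.96) and was positive in the fits with the animal covariate (0.02) and within animals 573 to 602 (0.07). G6pdx, the cytosolic dehydrogenase that opens the branch and not one of the 10 genes, averaged 43.8 ± 3.16 CPM in WT against 42.5 ± 3.25 in A1cf KO (SD, n = 6 each; log2 fold change -0.04, edgeR adjusted p = 0.85). It shares 418 of 3080 exon bases with Ikbkg on the other strand.

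H6pd, the dehydrogenase of the endoplasmic reticulum, overlapped between genotypes but not between the 2 runs of animal numbers. It ran from 258 to 393 CPM in WT (median 347) and from 249 to 371 CPM in A1cf KO (median 301), with overlapping groups (log2 fold change -0.15, SE 0.13, edgeR adjusted p = 0.70). In animals 776 to 780 it was at 379 to 393 CPM in WT and 371 CPM in the 1 A1cf KO. In animals 573 to 602 it was at 258 to 316 CPM in WT and 249 to 308 CPM in A1cf KO, so the 2 runs did not overlap in any of the 12 libraries. That share of all genes was not counted over the 12 libraries. Within WT alone the runs did not overlap for 18.1% of all genes. With the animal covariate the genotype difference was 0.0071 on the log2 scale, and within animals 573 to 602 it was 0.03. Hsd11b1, which uses the NADPH that H6pd makes, averaged 125 ± 40.1 CPM in WT against 163 ± 57.7 in A1cf KO (SD, n = 6 each, log2 fold change 0.38, edgeR adjusted p = 0.61). That of Hsd11b1 was 0.18 without A1cf KO 780, which stood at 268 CPM, and 0.64 with the animal covariate (edgeR adjusted p = 0.11).

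That contrast was also tested within WT alone, animals 776, 777 and 778 against 573, 590 and 601, which does not use the genotype difference by which Dera was chosen. H6pd was at 281 ± 33.3 CPM in the lower-numbered and 392 ± 8.72 CPM in the higher-numbered animals (SD, n = 3 each; here TMM was computed on the 6 WT libraries). The log2 fold change, higher-numbered relative to lower-numbered, was 0.48 (SE 0.10, edgeR adjusted p = 0.077) and did not pass the threshold. It was called without the filter on low counts (0.47, edgeR adjusted p = 0.0077; 2.53% of genes called) and by DESeq2 (0.48, adjusted p = 0.00081; 3.56% called). By the edgeR test with the filter 0 of the 10 genes passed, and 0.704% of all genes did.

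Shpk was lower in the higher-numbered WT animals, at 26.0 ± 0.85 against 32.5 ± 4.25 CPM (SD, n = 3 each), a log2 fold change of -0.32 (edgeR adjusted p = 0.24). H6pd and Shpk were the 2 of 10 genes whose WT animals did not overlap between runs, where 18.1% of all genes did not overlap. At an unadjusted p under 0.05 both passed, against 13.5% of all genes. Dera had a log2 fold change of -0.20 (45.9 ± 3.80 against 52.7 ± 7.45 CPM, edgeR adjusted p = 0.48) that was -0.092 without WT 590, and the remaining 7 lay between -0.19 and 0.18.

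In the non-oxidative branch the groups overlapped for all 4 genes. Rpe, ribulose-phosphate 3-epimerase, ran from 19.0 to 22.4 CPM in WT (median 20.7) and from 21.4 to 26.4 CPM in A1cf KO (median 23.3). A1cf KO 584 and 780 were highest, at 26.3 and 26.4 CPM, and A1cf KO 602 was the A1cf KO library inside the WT range. The log2 fold change was 0.20 (SE 0.067, edgeR adjusted p = 0.34) and positive under all 22 alternatives run. Of its 3113 exon bases, 558 overlap Kansl1l on the other strand, so its count is uncertain there. Rpia, ribose 5-phosphate isomerase, ran from 14.7 to 21.7 CPM in WT (median 18.9) and from 17.5 to 20.4 CPM in A1cf KO (median 18.7). The difference was 0.01 on the log2 scale (edgeR adjusted p = 0.97) and negative with the animal covariate (-0.02) and within animals 573 to 602 (-0.08).

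The transketolase and transaldolase genes, whose enzymes move 2-carbon and 3-carbon units between sugars, also overlapped between genotypes. Tkt ran from 229 to 257 CPM in WT (median 244) and from 228 to 252 CPM in A1cf KO (median 235). The log2 fold change was -0.04 (SE 0.051, edgeR adjusted p = 0.82), and the coefficient of variation was 5.11% in WT and 4.03% in A1cf KO. Taldo1 ran from 184 to 248 CPM in WT (median 221) and from 185 to 239 CPM in A1cf KO (median 201), with a log2 fold change of -0.09 (SE 0.079, edgeR adjusted p = 0.74). Rbks, ribokinase, ran from 13.1 to 18.1 CPM in WT (median 15.4) and from 12.9 to 15.4 CPM in A1cf KO (median 14.7). Its log2 fold change was -0.12 (SE 0.092, edgeR adjusted p = 0.69), and WT 573, 590 and 778 stood above all A1cf KO libraries. Without WT 590 the value of Rbks was -0.070, and within animals 573 to 602 it was -0.23.

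Levels were compared between genes per kilobase of the deposited exon length. Taldo1 was highest at 109 ± 10.7 CPM per kilobase in WT (SD, n = 6), followed by H6pd (63.5 ± 12.2), Tkt (37.2 ± 1.90), Pgd (23.0 ± 2.49) and Pgls (15.2 ± 1.33). Below them came Rbks (10.5 ± 1.52), Shpk (9.67 ± 1.48), Rpe (6.68 ± 0.41), Dera (5.99 ± 0.78) and Rpia (3.48 ± 0.45). In A1cf KO the mean of Rpe (7.67 ± 0.65) stood above that of Shpk (7.35 ± 0.48), but Rpe exceeded Shpk only in animals 584 and 780. From Taldo1 down to Rbks each gene exceeded the next in 12 of 12 libraries, except that Rbks exceeded Shpk in 11; Shpk exceeded Rpe in 10, Rpe exceeded Dera in 11 and Dera exceeded Rpia in 12. The order depends on length, since the counted exons of all annotated transcripts are merged. With the longest protein-coding transcript of GENCODE M21 as length (1729 bases for Dera), a choice made after seeing the data, Dera was at 28.2 ± 3.67 CPM per kilobase in WT and 20.8 ± 1.34 in A1cf KO, above Rbks, Rpia, Shpk and Rpe.

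By Pearson's r over the 6 libraries of a genotype, Dera varied most closely with Taldo1. Over the 6 WT libraries Pearson's r of their log2 CPM was 0.92 (exact permutation p = 0.0069, adjusted p = 0.063 over 18 relations of Dera with the other 9 genes) and Spearman's rho was 1 (exact permutation p = 0.0028, the smallest that 6 libraries can give, adjusted p = 0.050). Over the 6 A1cf KO libraries r was 0.94 (exact permutation p = 0.0042, adjusted p = 0.063) and rho 0.94 (exact permutation p = 0.017, adjusted p = 0.10). Without the 2 libraries farthest from the median of Dera, r with Taldo1 was 0.92 in WT and 0.94 in A1cf KO. In WT the lead of Taldo1 was small: r was 0.921 with it, 0.916 with Shpk, 0.904 with Rpia and 0.854 with Pgls. The exact permutation p for Pgls was 0.0375, adjusted 0.135. Without those 2 libraries r in WT was higher with Pgls (0.98) and Rpia (0.97) than with Taldo1. In A1cf KO r with Pgls was 0.44 (exact permutation p = 0.39, adjusted p = 0.53). After adjustment no p was under 0.05, and no r is given within a run of animal numbers, since none holds the 6 libraries of a genotype set as the minimum. All these values share the scaling of their library.

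With Shpk r was 0.92 in WT (exact permutation p = 0.014, adjusted p = 0.081; rho 0.83, exact p = 0.058, adjusted p = 0.18), and without WT 590 and 776 it was 0.63. In A1cf KO it was 0.36 (exact permutation p = 0.48, adjusted p = 0.58; rho 0.60, exact p = 0.24, adjusted p = 0.45), and without A1cf KO 602 and 574 it was 0.81. So leaving out 2 libraries lowered r in WT and raised it in A1cf KO, and no difference between the genotypes is read from these values. Rpia and Dera had r of 0.90 in WT (exact permutation p = 0.018, adjusted p = 0.081; rho 0.94, exact p = 0.017, adjusted p = 0.10) and, among A1cf KO libraries, of -0.15 (exact permutation p = 0.80, adjusted p = 0.80; rho 0.029, exact p = 1, adjusted p = 1). Without the same libraries it was 0.97 in WT and 0.38 in A1cf KO. Pgd, Rpe and H6pd had negative signs in both genotypes. For H6pd r was -0.53 in WT (rho -0.37) and -0.25 in A1cf KO (rho -0.31). The exact permutation p for r of H6pd was 0.29 and 0.65, adjusted 0.50 and 0.73. Without WT 590 and 776 r of H6pd in WT was 0.20. For Pgd r was -0.49 in WT (rho -0.54) and -0.81 in A1cf KO (rho -0.83), with exact permutation p for r of 0.33 and 0.051, adjusted 0.50 and 0.15. For Rpe r was -0.68 in WT (rho -0.77) and -0.48 in A1cf KO (rho -0.54), with exact permutation p for r of 0.13 and 0.34, adjusted 0.34 and 0.50.

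**Figure D3:**
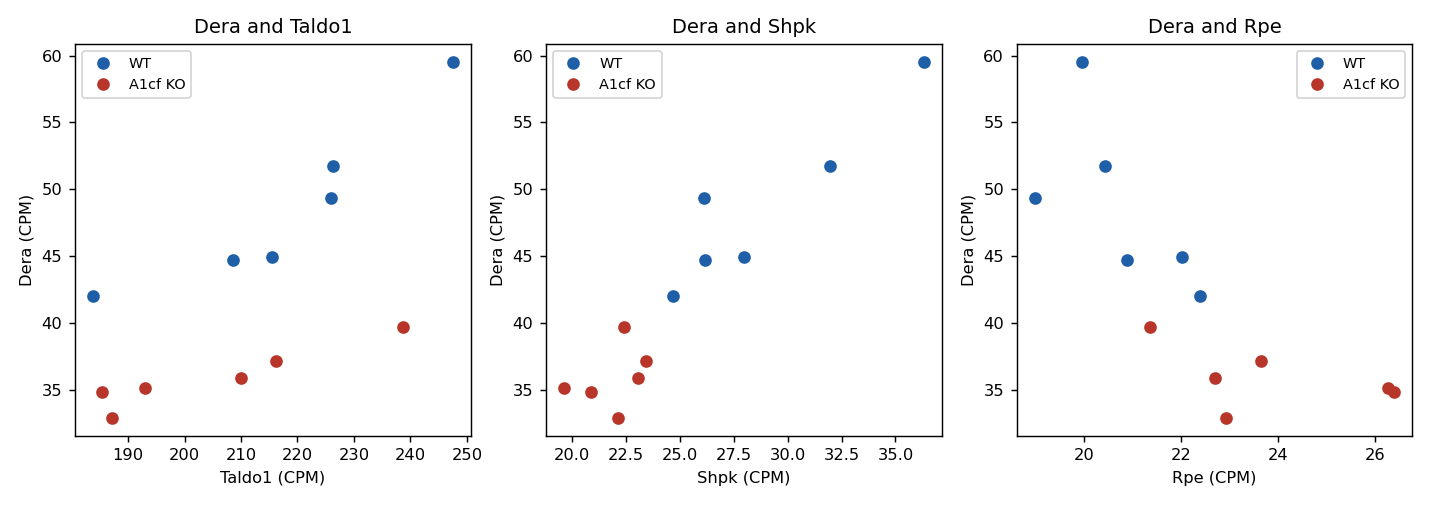
Dera (y axes, CPM) against Taldo1, Shpk and Rpe (x axes, CPM), 1 point a library, 6 WT in blue and 6 A1cf KO in red. Dera is higher where Taldo1 is higher within both genotypes (r 0.92 and 0.94), and Shpk and Dera are both lower in A1cf KO. With Rpe r is negative (-0.68 in WT and -0.48 in A1cf KO). None of these relations has an adjusted permutation p under 0.05.

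Among 12690 genes averaging 1 CPM or more, predicted genes left out, the 5 most like Dera over the 12 libraries by Pearson's r of log2 CPM were Tmed4 (0.94), Shpk (0.93), Prcp (0.93), Araf (0.92) and Tsta3 (0.92). This likeness holds the genotype difference by which Dera was chosen. The log2 fold changes of these genes were -0.17 for Tmed4, -0.33 for Prcp, -0.12 for Araf and -0.15 for Tsta3. With the mean of each genotype removed, r was 0.88 for Tmed4, 0.81 for Shpk, 0.87 for Prcp, 0.86 for Araf and 0.81 for Tsta3. The 5 genes most like Dera were then Chmp1a (0.99), Kif22 (0.96), Acsf3 (0.95), Poldip2 (0.94) and Adck4 (0.94), whose log2 fold changes ran from -0.12 to 0.13. In that order Taldo1 was at place 65 and Shpk at place 317.

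Neighbours of Dera on chromosome 6 were read next. Of 31 gene names within 1 Mb, 12 were tested and 0 passed by edgeR or DESeq2, where 0.0473% and 1.14% of all genes did. So few genes cannot be told apart from those shares. Their log2 fold changes ran from -0.28 to 0.51 around a median of 0.05. Strap, whose gene ends 2614 bases before Dera on the same strand and which encodes a factor of SMN complex assembly, averaged 77.3 ± 3.39 CPM in WT against 81.5 ± 2.44 in A1cf KO (SD, n = 6 each, log2 fold change 0.08, edgeR adjusted p = 0.58). Mgst1, a microsomal glutathione transferase gene on the other side, had a log2 fold change of -0.07, and Eps8, an actin regulator gene, one of -0.02. Ptpro (0.09), Rerg (0.26), Art4 (0.15), H2afj (0.000106), Wbp11 (0.02) and Arhgdib (-0.27) had adjusted p between 0.56 and 1.00 by edgeR. Without WT 777 the value of Arhgdib was -0.085, without A1cf KO 780 that of Art4 was 0.039, and without WT 590 that of Rerg was 0.15; with the animal covariate Art4 and Rerg had 0.35 and 0.38. Mgp, which encodes the calcification inhibitor matrix Gla protein, was the 1 with an unadjusted edgeR p under 0.05, where 10.4% of all genes had one. The log2 fold change of Mgp was 0.51 (edgeR adjusted p = 0.32). All 12 overlapped between genotypes, and 0.84% of all genes tested did not.

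Genes of the adjoining steps were read from lists of ribose phosphate, nucleoside and NADPH metabolism. Over 52 tested list genes other than the 10, 0 passed in the edgeR test, and 4 were lower and 0 higher at an unadjusted p under 0.05 (5.28% and 5.07% of all genes). DESeq2 called 1 of the 52, where it called 1.14% of all genes. That gene was Me3, the mitochondrial NADP-dependent malic enzyme, at 35.1 to 40.4 CPM in WT (median 37.6) and 27.8 to 32.9 CPM in A1cf KO (median 30.3). Its groups did not overlap, as was so for 0.52% of all genes in the lower direction. Its log2 fold change was -0.29 (SE 0.055, edgeR adjusted p = 0.11, DESeq2 adjusted p = 0.00052). Of its 14624 exon bases, 569 overlap A230065N10Rik on the other strand. Other NADPH sources did not pass: Me1, the cytosolic malic enzyme, was at 529 ± 54.6 and 587 ± 57.2 CPM, Mthfd1 at 253 ± 13.9 and 235 ± 7.29 CPM, and Aldh1l1, the most abundant of the list, at 641 ± 34.5 and 648 ± 63.0 CPM (SD, n = 6 each, edgeR adjusted p of 0.54, 0.49 and 0.96). The log2 fold change of Idh2, a mitochondrial isocitrate dehydrogenase gene, was -0.10. The median of the 9 listed NADPH sources was -0.10.

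Of 9 tested genes on the ribose phosphate list, 6 had a negative fold change and 0 passed (median -0.04). Prps2, a phosphoribosyl pyrophosphate synthetase, had the smallest p, at 57.4 ± 3.93 and 52.2 ± 2.10 CPM (SD, n = 6 each, log2 fold change -0.14, edgeR adjusted p = 0.39). The log2 fold changes of Prps1 and of the associated protein gene Prpsap1 were -0.07 and -0.09, and that of the amidotransferase gene Ppat was 0.05. That of the deposited name Pgm2 (chromosome 4), the most abundant of the list, was -0.00932, and that of Pgm1 (chromosome 5) was 0.05. Which of these 2 names stands for an enzyme of ribose phosphate is not read from the names. Of 12 genes listed for nucleoside phosphorylases and deoxynucleoside breakdown, 6 had a positive and 6 a negative fold change (median -0.00527) and 0 passed. Pnp, a purine nucleoside phosphorylase, was at 66.5 ± 2.40 and 61.3 ± 6.34 CPM, Tymp, thymidine phosphorylase, at 1.43 ± 0.26 and 1.73 ± 0.28 CPM, and Cda, cytidine deaminase, at 269 ± 34.7 and 276 ± 27.2 CPM (SD, n = 6 each, edgeR adjusted p of 0.55, 0.62 and 0.90). Nt5c, a deoxynucleotidase, had a log2 fold change of -0.14 and Pnp2 one of -0.44 at a mean under 1 CPM. Tymp shares 851 of its 2037 exon bases with Sco2 and 535 with Ncaph2.

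Of 10 genes listed for nucleoside salvage, 7 had a negative fold change and 0 passed (median -0.06). That list also holds Umps, whose enzyme belongs to the new synthesis of pyrimidines. Dguok, the mitochondrial deoxyguanosine kinase, was at 21.5 ± 1.42 and 19.3 ± 1.06 CPM, and Umps, the synthase of uridine monophosphate, at 29.9 ± 2.45 and 26.9 ± 1.12 CPM (SD, n = 6 each, edgeR adjusted p of 0.40 and 0.41). Tk2, mitochondrial thymidine kinase, had a log2 fold change of -0.11, Hprt one of 0.05 and Adk, adenosine kinase and the most abundant, one of -0.05. Of 10 genes for NADPH-using antioxidant enzymes and their partners, 4 were positive and 6 negative with 0 past the threshold (median -0.01). Gclm was at 298 ± 40.7 and 337 ± 35.4 CPM, Gsr at 175 ± 12.7 and 189 ± 13.4 CPM, and Txnrd1 at 207 ± 27.2 and 235 ± 51.7 CPM (SD, n = 6 each, edgeR adjusted p of 0.53, 0.57 and 0.66), and without A1cf KO 584 the log2 fold change of Txnrd1 went from 0.18 to 0.080. Akr1b3, aldose reductase, had a log2 fold change of -0.52 (SE 0.41, edgeR adjusted p = 0.69) that turned to 0.25 without WT 777, which stood at 240 CPM against 34.0 to 66.3 CPM in the other WT libraries.

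Several relatives of the pathway enzymes had few or no reads in whole kidney. Tktl2 and Prps1l1 were at 0 in all 12 libraries. The transketolase-like gene Tktl1 had at most 2 counts in a library, and G6pd2, a gene related to G6pdx, at most 4.

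**Figure D4:**
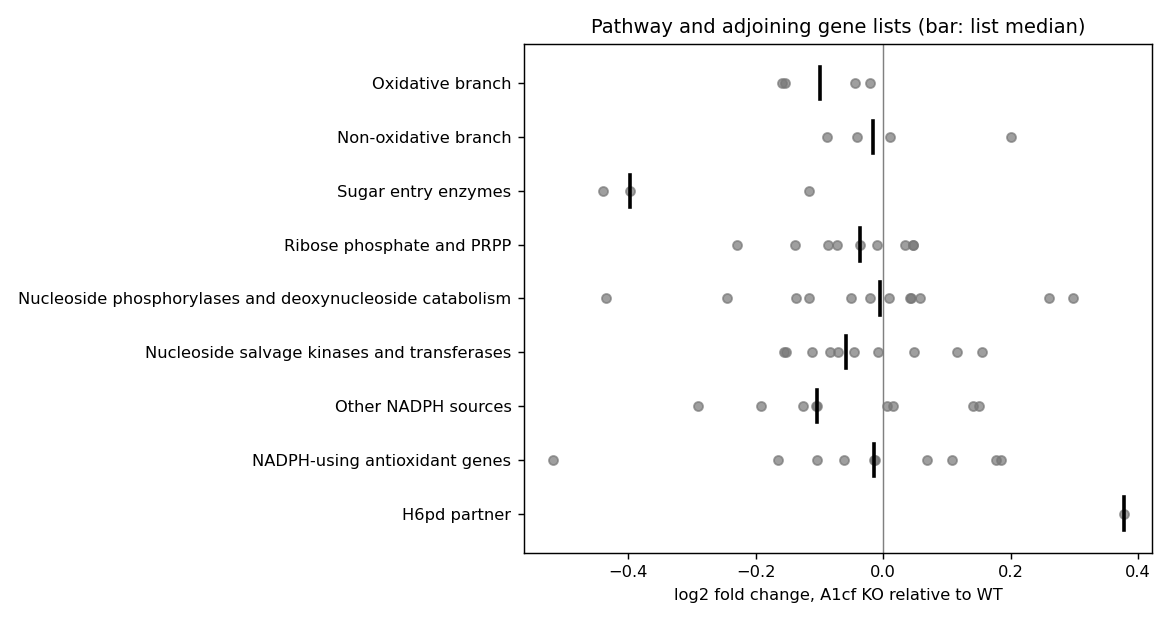
Each grey point is the log2 fold change of a tested gene (x axis, negative where lower in A1cf KO) in 1 of 9 lists of the pathway and adjoining steps, and black bars are list medians. The list of sugar entry enzymes holds 3 genes, including Dera, which was chosen for its lower level in A1cf KO. Nothing is read from its median (-0.40). The medians of lists with 4 or more genes lie between -0.10 and -0.00527.

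Levels of tubule segment markers stood beside those of Dera and Shpk as follows. All 10 loop of Henle markers had a negative fold change (median -0.37), 0 passed by edgeR (0.0473% of all genes did), and 9 were lower at an unadjusted p under 0.05 (5.28% of all genes). Their summed level was 5222 to 7465 CPM in WT and 3953 to 4987 CPM in A1cf KO, without overlap. Umod was the largest part of that sum, at 3084 ± 326 and 2218 ± 213 CPM (SD, n = 6 each). Taken singly, only Umod and Cldn16 did not overlap, as 0.52% of all genes did in the lower direction. The other loop markers overlapped between genotypes. All 5 distal convoluted tubule, 5 principal cell and 6 intercalated cell markers tested were negative as well, as were 50.8% of all genes (medians -0.22, -0.18 and -0.21), with summed levels that overlapped: 1375 to 2111 against 1308 to 1658 CPM, 441 to 638 against 431 to 551 CPM, and 294 to 436 against 296 to 311 CPM. The 8 macrophage and lymphocyte markers (7 positive, median 0.37) summed to 79.8 to 95.6 CPM in WT and 88.9 to 96.7 CPM in A1cf KO, with 0 past the edgeR threshold and 4 higher at an unadjusted p under 0.05 (5.07% of all genes). The most abundant of them, Csf1r, was the negative one (59.7 ± 4.24 and 56.3 ± 6.30 CPM), and Itgax (2.34 ± 0.25 and 3.41 ± 0.74 CPM; SD, n = 6 each), picked out after its values were seen, did not overlap between genotypes, as 0.319% of all genes did in the higher direction. The 12 proximal tubule markers (7 positive) had a median of 0.06, and the sums of podocyte (181 to 323 against 228 to 303 CPM), endothelial (113 to 245 against 144 to 232 CPM), fat (8.55 to 127 against 0.79 to 197 CPM), red cell (193 to 346 against 120 to 376 CPM) and adrenal markers (3.18 to 5.15 against 3.18 to 4.10 CPM) overlapped; no marker was at 0 in all libraries. The part of these markers in the levels of Dera and Shpk was not tested, and in whole kidney fewer cells of a type and less RNA per cell cannot be told apart.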

How the data were processed

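Counts of reads per gene name were deposited by the authors, who counted with featureCounts 1.5.0-p2 over GENCODE M8 exons, summed by gene name, per the file headers, where the alignment names read trimmed, duplicate-marked and merged. The header sets no strand, pair, duplicate or multi-mapping option. STAR, DESeq2 and mm10 are named in the submitters' processing notes, and the STAR version is not given in the sources used here. Exon lengths are deposited in the same table.

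From the counts, genes were kept with filterByExpr (16910), scaled by TMM and tested with the edgeR 4.0.16 quasi-likelihood test in R 4.3.3, with Benjamini-Hochberg adjustment over all genes and a threshold of 0.05. SE is the log2 fold change divided by the root of F. DESeq2 1.42.0 and limma-voom (limma 3.58.1) were alternatives. The fits were tested on simulated counts, and alternatives changed the scaling, filter, test, animal covariate or libraries. Of simulated 1.3-fold changes, 24.5% were recovered with 6 against 6 libraries and 8% with 3 against 3. Of simulated 2-fold changes, 72.9% and 63.3% were recovered. A gene that did not pass can therefore still differ by such an amount. The DESeq2 Wald test was run on the same genes but with its own size factors and independent filtering, so that it adjusted p over 14930 genes by genotype and 15046 in the WT contrast. Total counts were 26671705 to 52899139, so members had at least 357 counts per library. No 2 of 66 library pairs agreed within sampling noise (smallest chi-square per degree of freedom 17.3). The labels do not say how animals were related, so p-values measure the spread between these libraries.

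The members and lists were chosen with earlier results of these data known. Named genes are the 10 members, up to 4 genes of smallest p and the most abundant of each list, named neighbours of Dera at 1 CPM or more, and the 5 genes most like Dera by each measure.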

Additional observations from a re-analysis of the deposited data

Results flagged for a closer look

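In 56 genes named here, the highest or lowest of the 6 libraries of a genotype was set against the nearest of the others. In 8 of 112 such groups its gap to that neighbour was a larger share of the range than the 95% limit of Dixon's test allows, which by chance happens in about 1 in 20 groups. None of the 10 pathway genes was among them. WT 777 accounted for 4: Akr1b3 at 240 CPM (next 66.3), Arhgdib at 15.4 CPM (next 9.57), Pnp at 62.0 CPM (next 66.5) and Strap at 70.7 CPM (next 77.6). A1cf KO 574 accounted for 2, Mgp at 62.8 CPM (next 76.3) and Pnp2 at 0.65 CPM (next 0.39). Eps8 stood at 140 CPM in A1cf KO 780 (next 120.5), and Poldip2 at 130 CPM in A1cf KO 602 (next 118).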

How the results depend on the processing

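No paired analysis was possible because the animal numbers of WT and A1cf KO do not match. Over 22 alternatives the log2 fold change of Dera ran from -0.53 to -0.37 (-0.48 to -0.37 when 1 library was left out), and Shpk, Pgls, Rpe, Tkt, Taldo1 and Rbks kept their signs. The count of the 9 other genes called was 1 by DESeq2 and 1 with the animal covariate, Shpk in both, against 0. The 52 list genes gave 1 by DESeq2. All genes called were 170 by DESeq2 and 24 with the animal covariate against 8, and 6 to 12 with 1 library left out. In the WT contrast by animal run, 1 of the 10 genes was called by DESeq2 and 1 without the filter (H6pd), with 535 and 691 genes in all against 120, and 18 (without WT 590) to 170 (without WT 573) with 1 library left out. The cause was not tested.

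Signs turned for differences that no setting called. With the animal covariate these were Pgd (0.023), Rpia (-0.022), H6pd (0.0071), Cda (-0.046), H2afj (-0.018), Eps8 (0.023) and Mgst1 (0.029). Within animals 573 to 602 they were Pgd (0.068), Rpia (-0.079) and H6pd (0.033), and without the filter Tkt in the WT contrast (-0.00094). With 1 library left out the values ran from -0.099 to 0.036 for Pgd, -0.047 to 0.060 for Rpia, -0.043 to 0.033 for Pgm2, -0.0025 to 0.093 for Cda, -0.017 to 0.061 for Aldh1l1, -0.67 to 0.25 for Akr1b3, -0.046 to 0.088 for H2afj, -0.00052 to 0.045 for Wbp11, -0.071 to 0.0098 for Eps8 and -0.13 to 0.0076 for Mgst1, and in the WT contrast from -0.065 to 0.052 for Rpe and -0.026 to 0.057 for Tkt.

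Per kilobase levels moved with the transcript length, an alternative added after the data were seen. Counts summed by gene name give no exon or isoform values, and for genes at low counts (Pnp2, Tymp) the spread is wide.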

Other observations

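The ratio of Dera to Taldo1, chosen after the values were seen, varied less within a genotype than Dera did. It ran from 0.209 to 0.241 in WT (median 0.223) and from 0.166 to 0.188 in A1cf KO (median 0.174), with coefficients of variation of 5.18% and 4.48%, where those of Dera were 13% and 6.46%. The ratio of Shpk to Dera overlapped between genotypes, at 0.530 to 0.623 in WT and 0.559 to 0.673 in A1cf KO. These ratios rest on the difference by which Dera was chosen and carry no test.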
